A study of Rattus norvegicus with 6 samples.

Results

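The NADPH oxidase and antioxidant defence genes described here are 39 genes chosen by name: 6 that encode NADPH oxidases or their partner proteins and 33 that encode enzymes and regulators which remove reactive oxygen species. They were chosen with earlier results of these data known, so counts among them are description only. Rows of the deposited table whose gene symbol is one of these 39 names were taken. The table lists 37 of them among 13526 genes. Cybb, the catalytic subunit of the phagocyte oxidase, and Srxn1, sulfiredoxin, were not listed.

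The samples were wild-type primary vascular smooth muscle cells (VSMCs) from rat thoracic aorta, in which RNA was sequenced. The OM plus EMPA group (3 samples) was kept in osteogenic media (OM), which holds 10 mM β-glycerophosphate (β-GP) and 3.5 mM CaCl2, together with 1 μM empagliflozin, an inhibitor of the glucose transporter SGLT2. The OM group (3 samples) was kept in the same media without the drug, and the labels give 5 days of treatment for both (a shorter time stands in the study's figure legend). Sample titles name the medium Pi, a term the study uses for its inorganic phosphate treatment, and OM is used here because the labels' treatment protocol and that legend both name it. Complete media, without the calcifying additions, was not analysed here, so each difference is between osteogenic media with and without the drug. No source says whether the 3 samples of a group were separate cultures or animals, so a p-value here reflects the spread among these samples alone, and that spread may be technical.

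NADPH oxidases move electrons from NADPH onto oxygen and release superoxide or hydrogen peroxide. In the vessel wall NOX1 and NOX4 are the forms best known from smooth muscle, while DUOX1 is best known from thyroid and epithelia. Superoxide dismutases turn superoxide into hydrogen peroxide, which catalase breaks down. Glutathione peroxidases and peroxiredoxins also break it down, many of them with the help of glutathione or thioredoxin. The transcription factor NRF2, encoded by Nfe2l2 and held in check by KEAP1, drives many of these genes when cells meet oxidants.

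Of the 37 listed genes 3 passed the test (8.11%), a share near the 6.92% of all tested genes. These were Duox1, higher in the OM plus EMPA group, and Nfe2l2 and Gss, lower in it. Duox1 rose by 1.08 on the log2 scale, and its partner Duoxa1 had the next largest difference. Nfe2l2 and the glutathione synthase gene Gss fell by 0.25 and 0.30. Each passed in only 2 of the 6 fits that left 1 library out. The listed span of Gss also overlaps that of another gene, which makes its value uncertain. None of the dismutases, catalase, glutathione peroxidases, peroxiredoxins or genes of the thioredoxin system passed the test.

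Values are TPM, a transcript abundance corrected for transcript length and scaled to the same total, so levels can be set side by side between genes. They sum to 997954 to 998293 in each library, and the sequencing depth behind them is unknown. The test was limma's, on log2(TPM + 1), for the 12564 genes that averaged 1 TPM or more, and each fold change below is the OM plus EMPA mean minus the OM mean on that scale, which understates changes of genes near 1 TPM. A gene is called higher or lower at a Benjamini-Hochberg adjusted p of at most 0.05. Over all tested genes 259 were called higher and 611 lower, or 390 and 381 after median-ratio scaling of the TPM, and their median fold change was -0.05. Transcripts encoded by the mitochondrial genome took 10.3 to 10.88% of TPM in OM plus EMPA libraries and 8 to 9.694% in OM libraries. Of 8 smooth muscle markers 7 were listed (Des was not) and 6 were tested. Of these 4 rose (Acta2, Tagln, Cnn1 and Lmod1), against 2.06% of all tested genes. The 7 listed markers had a summed level of 2652 ± 239.1 TPM in the OM plus EMPA group against 1919 ± 211.2 TPM in the OM group (SD, n = 3 each). Myh11, the smooth muscle myosin heavy chain, was not called and averaged 15.8 TPM with empagliflozin and 17.9 TPM without it, and Tagln made up most of the sum. Fewer cells of a type and less RNA per cell cannot be told apart in such samples. None of 7 endothelial markers was listed, and of 14 macrophage and leukocyte markers only Cd68, Cd14 and Fcer1g were, without Ptprc, Adgre1 or Csf1r.

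All 37 listed genes passed the filter. Of these, 3 (8.11%) were called, against 6.92% of all tested genes, a share near the background. One was higher (2.06% of all tested genes were) and 2 were lower (4.86% of all tested genes were). No gene of the 37 was called lower when replicate 1 or 2 with empagliflozin, or replicate 1 or 3 without it, was left out. At an unadjusted p under 0.05, 4 were higher and 7 lower, against 6.42% and 17.6% of all tested genes (24.1% in all). Fold changes of 24 of the 37 were below 0, as were those of 65.1% of all tested genes. The 3 libraries of one group lay apart from those of the other for 10 genes, 3 of them higher with empagliflozin (Duox1, Duoxa1 and Nox4), a pattern found in 7.85% of all tested genes. The other 7 were lower (Nox1, Gpx1, Gss, Slc7a11, Nfe2l2, Sqstm1 and Fth1), and 22.5% of all tested genes were lower in this way. The median fold change of the 37 genes was -0.03, against -0.05 for all tested genes, but 0.027 against -0.0005 after median-ratio scaling and 0.0018 for the 37 genes without OM replicate 1.

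**Figure D1:**
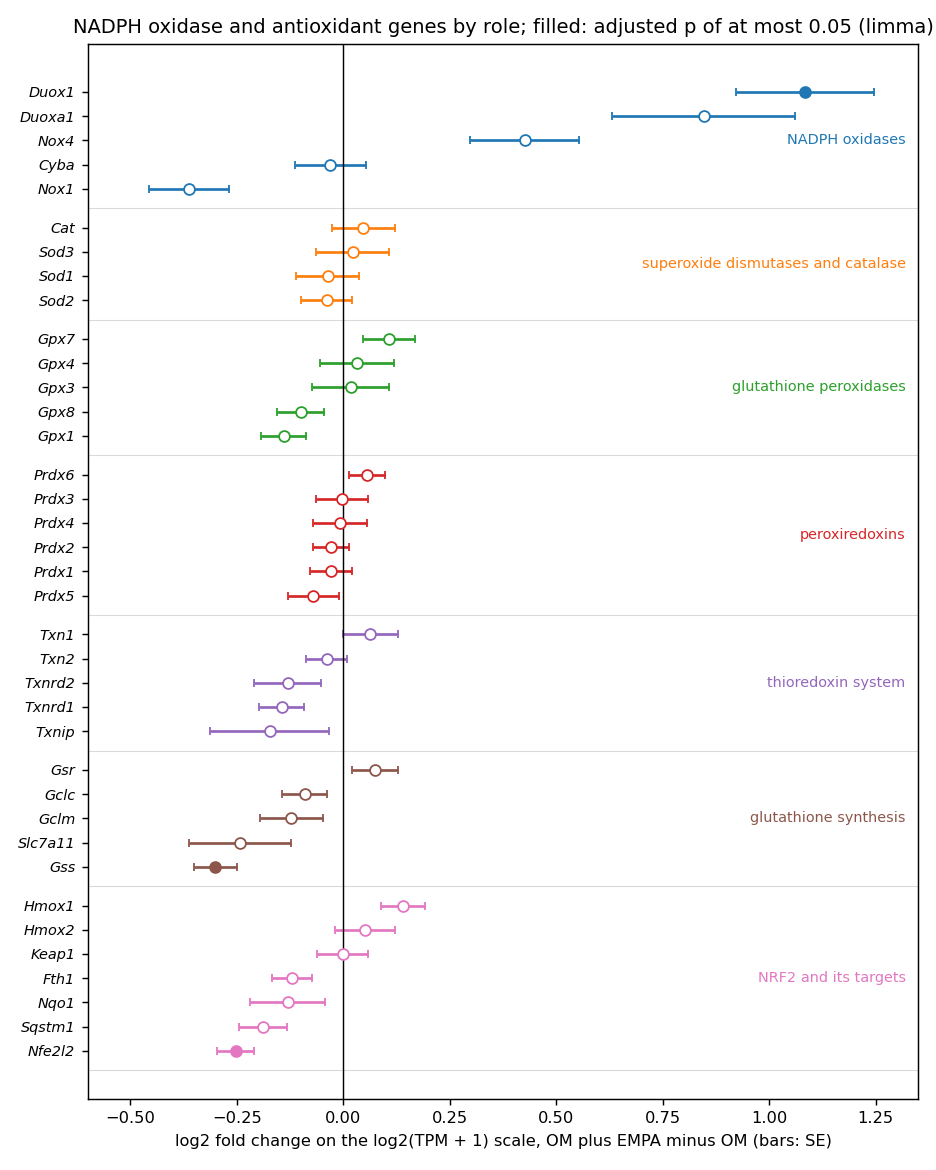
Log2 fold change of each of the 37 listed genes (horizontal axis, the OM plus EMPA mean minus the OM mean of log2(TPM + 1)), grouped by role, with the standard error as bars. Filled points mark the 3 called genes, Duox1 at 1.08, Gss at -0.30 and Nfe2l2 at -0.25, while the superoxide dismutases, catalase and peroxiredoxins lie between -0.07 and 0.06.

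DUOX1 is an oxidase that releases hydrogen peroxide and is switched on by calcium, and DUOXA1 is the maturation factor that carries it out of the endoplasmic reticulum. Their genes lie head to head on chromosome 3 in the authors' table, for which no source used here gives the genome build. Duoxa1 spans positions 109249923 to 109260499 on the minus strand and Duox1 spans 109262397 to 109295563 on the plus strand, with 1897 bases between them. Because this pair showed the largest differences, the 250 bases before each annotated start are shown from RefSeq on build GRCr8, 5′ to 3′ on the strand of the gene, with every CG pair in capitals. They cover chr3:129715746-129715995 (plus strand) for Duox1 and chr3:129714007-129714256 (minus strand) for Duoxa1.
Duox1: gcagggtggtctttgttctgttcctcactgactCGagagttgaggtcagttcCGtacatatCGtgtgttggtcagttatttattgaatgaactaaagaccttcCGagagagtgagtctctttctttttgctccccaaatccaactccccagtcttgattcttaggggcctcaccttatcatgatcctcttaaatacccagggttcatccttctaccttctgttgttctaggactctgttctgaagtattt
Duoxa1: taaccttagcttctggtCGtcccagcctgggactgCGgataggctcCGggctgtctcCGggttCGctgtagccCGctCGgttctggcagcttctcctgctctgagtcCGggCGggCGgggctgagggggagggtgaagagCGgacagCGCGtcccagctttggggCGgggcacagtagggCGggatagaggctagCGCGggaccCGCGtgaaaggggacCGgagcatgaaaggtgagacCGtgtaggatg
The Duoxa1 sequence holds 21 CG pairs and is 66.4% G or C, whereas the Duox1 sequence holds 4 and is 44.0% G or C.

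Duox1 was at 5.30, 4.25 and 3.85 TPM in the OM plus EMPA libraries and at 1.57, 2.04 and 1.16 TPM in the OM libraries. The lowest library with empagliflozin was above the highest without it. The means were 4.47 ± 0.75 TPM in the OM plus EMPA group against 1.59 ± 0.44 TPM in the OM group (SD, n = 3 each), and the fold change was 1.08 (SE 0.16, adjusted p = 0.0108 from limma with Benjamini-Hochberg adjustment). Duox1 stayed called when any 1 library was left out, with fold changes of 0.96 to 1.21. It had the lowest level of the 37 genes, 3.03 TPM over the 6 libraries.

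Duoxa1 was at 12.37, 11.47 and 8.39 TPM in the OM plus EMPA libraries and at 6.61, 6.62 and 3.65 TPM in the OM libraries. There was no overlap between the groups, and replicate 3 was the lowest library in each. The fold change was 0.85 (SE 0.22), which did not pass the test (adjusted p = 0.0575 from limma). Duox2, a second calcium-switched oxidase of the same cluster, lies 4020 bases from Duoxa1 and was added after its values were seen. It was at 0.30, 0.18 and 0.22 TPM in the OM plus EMPA libraries and at 0.14, 0.09 and 0.05 TPM in the OM libraries, under the filter of 1 TPM in each. The flanking genes Sord and Shf had fold changes of 0.07 and 0.06 (adjusted p = 0.578 and 0.842 from limma), and neither was called. Whether the differences of the Duox genes and of these neighbours are unequal was not tested. The ratio of Duox1 to Duoxa1 was 0.428, 0.371 and 0.459 in the OM plus EMPA libraries and 0.238, 0.308 and 0.318 in the OM libraries (exact permutation test, two-sided p = 0.1, the smallest that 3 against 3 samples allow).

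**Figure D2:**
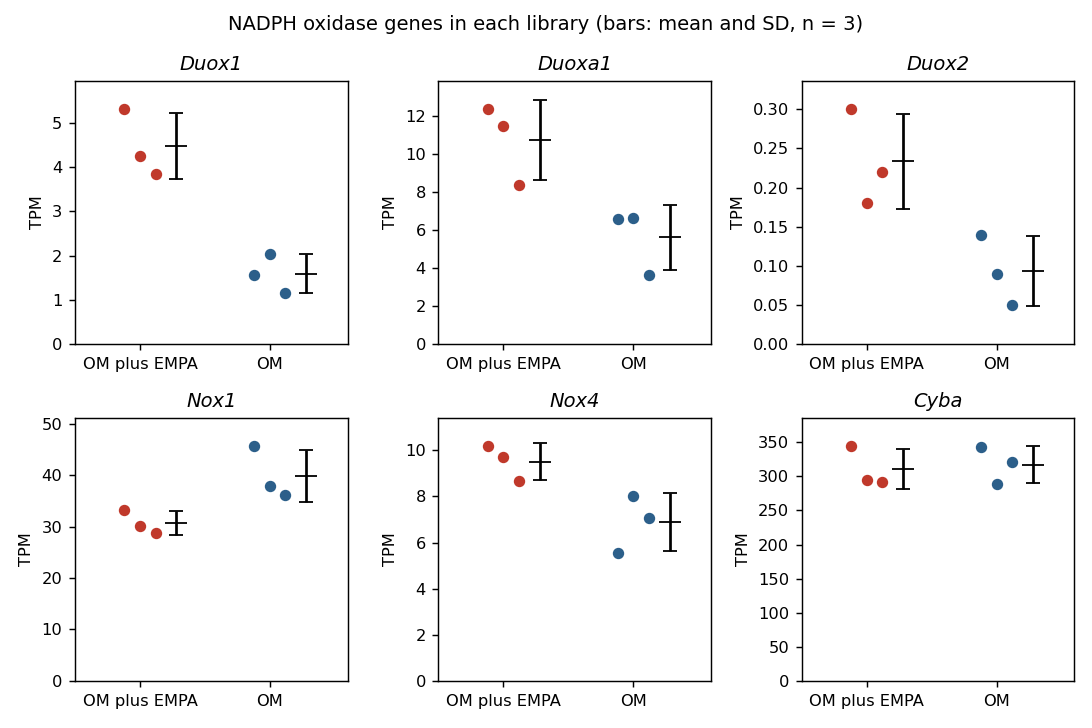
TPM of 6 oxidase genes in each library (vertical axis, linear, starting at 0), with a bar for the mean and SD of each group (n = 3). The OM plus EMPA points lie above the OM points for Duox1, Duoxa1, Duox2 and Nox4, below them for Nox1, and among them for Cyba.

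Nox1, the superoxide-producing oxidase linked to smooth muscle growth, had the second highest level of the listed oxidase genes. It was at 33.23, 30.08 and 28.78 TPM in the OM plus EMPA libraries and at 45.68, 37.91 and 36.14 TPM in the OM libraries. All 3 libraries with empagliflozin were below all 3 without it, but the fold change of -0.36 (SE 0.09) did not pass the test (adjusted p = 0.0609 from limma). The listed spans of Nox1 (chromosome X, 97279056 to 97302236, minus strand) and of Cstf2 on the opposite strand share 421 bases. Cstf2 had a fold change of -0.22 (adjusted p = 0.206 from limma).

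Nox4, which releases hydrogen peroxide without a need for cytosolic activators, was at 10.19, 9.69 and 8.65 TPM in the OM plus EMPA libraries and at 5.53, 8.03 and 7.08 TPM in the OM libraries. Again no library of one group fell among the other, and OM replicate 1 was the lowest library. The fold change was 0.43 (SE 0.13, adjusted p = 0.0947 from limma), short of the threshold. The fold changes of Nox4 and Nox1 had opposite signs, and neither was called. Cyba encodes p22phox, the membrane partner of NOX1 and NOX4 and the most abundant transcript of the oxidase group. It was at 344.72, 295.42 and 292.20 TPM in the OM plus EMPA libraries and at 342.65, 288.29 and 321.40 TPM in the OM libraries. The groups overlapped, with a fold change of -0.03 (SE 0.08, adjusted p = 0.852 from limma).

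A set of 16 other oxidase and related genes held oxidases, cytosolic activators, small GTPases, chaperones, regulators, a proton channel and xanthine dehydrogenase (Xdh). Of these 7 were listed and 6 tested. The fold change of all 6 was below 0, as for 65.1% of all tested genes, whose median was itself -0.05. One fell (4.86% of all tested genes did), P4hb, the endoplasmic reticulum chaperone protein disulfide isomerase, reported to associate with NADPH oxidases. It was at 1839.56, 1857.24 and 1949.85 TPM in the OM plus EMPA libraries and at 2174.34, 2172.59 and 2264.18 TPM in the OM libraries. All libraries with empagliflozin were the lower ones, and the fold change was -0.23 (SE 0.05, adjusted p = 0.0350 from limma). The call was lost when any 1 of the 6 libraries was left out (adjusted p = 0.0573 to 0.129) and under median-ratio scaling, TPM without mitochondrially encoded genes, or no variance trend (adjusted p = 0.105, 0.0541 and 0.0675 from limma). Cybc1, a chaperone of the phagocyte oxidase, and Hvcn1, a proton channel, had fold changes of -0.19 and -0.32 (adjusted p = 0.101 and 0.109 from limma).

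The superoxide dismutases were abundant and differed little. Sod1 (cytosol) averaged 693 TPM in the OM plus EMPA group against 712 TPM in the OM group, Sod2 (mitochondria) averaged 874 TPM with empagliflozin and 898 TPM without it, and the extracellular enzyme Sod3 averaged 520 TPM with empagliflozin and 511 TPM without it. Catalase (Cat), the peroxisomal enzyme that splits hydrogen peroxide, averaged 92.9 TPM in the OM plus EMPA group against 90.1 TPM in the OM group. The 4 fold changes lay between -0.04 and 0.05, the groups overlapped for every gene, and none passed the test (lowest adjusted p = 0.732 from limma, with 0 genes at an unadjusted p under 0.05). The pair with the smallest p were Sod2 at -0.04 and Cat at 0.05.

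Many glutathione peroxidases, though not all, reduce peroxides with glutathione. Gpx1, the cytosolic form, was at 339.30, 325.28 and 311.64 TPM in the OM plus EMPA libraries and at 381.68, 344.11 and 351.15 TPM in the OM libraries. Every OM library was above every OM plus EMPA library, yet the fold change of -0.14 did not pass the test (adjusted p = 0.166 from limma). Gpx8, an enzyme of the endoplasmic reticulum, averaged 485 TPM with empagliflozin and 521 TPM without it (fold change -0.10, adjusted p = 0.307 from limma, or -0.15 without OM replicate 2). Gpx4, which reduces lipid peroxides in membranes, averaged 742 TPM with empagliflozin and 727 TPM without it. The secreted Gpx3 averaged 509 TPM with the drug and 504 TPM in OM alone, and Gpx7 averaged 130 TPM with the drug and 120 TPM in OM alone. Of the 5 genes 3 had fold changes above 0 and 2 below, and 1 (Gpx1) had an unadjusted p under 0.05. The listed span of Gpx3 shares 44 bases with that of Tnip1 and 1357 with a transcript without a symbol, both on the opposite strand.

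Peroxiredoxins remove much of the hydrogen peroxide a cell makes, and thioredoxin restores them. Prdx5 was the most abundant of all 37 genes, with 1709 TPM in the OM plus EMPA group against 1795 TPM in the OM group, and Prdx1 averaged 1212 TPM with empagliflozin and 1238 TPM without it. Prdx2 averaged 381 TPM with empagliflozin and 389 TPM without it, and the mitochondrial Prdx3 averaged 175.9 TPM with it and 175.8 TPM without. Prdx4, of the endoplasmic reticulum, averaged 138.7 TPM with the drug and 139.5 TPM in OM alone, and Prdx6 averaged 82.1 TPM with the drug and 78.9 TPM in OM alone. Fold changes of the 6 genes lay between -0.07 (Prdx5) and 0.06 (Prdx6), these 2 having the smallest p. No peroxiredoxin passed the test (lowest adjusted p = 0.458 from limma, with 0 genes at an unadjusted p under 0.05).

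In the thioredoxin system no gene passed the test, and 1 (Txnrd1) had an unadjusted p under 0.05. Thioredoxin itself (Txn1, cytosol) averaged 1095 TPM in the OM plus EMPA group against 1049 TPM in the OM group, and mitochondrial Txn2 averaged 108 TPM with empagliflozin and 111 TPM without it. Txnrd1, the cytosolic reductase that recharges thioredoxin from NADPH, was at 102.28, 99.67 and 107.62 TPM in the OM plus EMPA libraries and at 107.15, 117.33 and 118.26 TPM in the OM libraries. The groups overlapped by 1 library, and the fold change was -0.14 (adjusted p = 0.154 from limma). The mitochondrial reductase Txnrd2 averaged 11.3 TPM with empagliflozin and 12.5 TPM without it (fold change -0.13, adjusted p = 0.357 from limma, or -0.08 without OM replicate 1). Txnip, the thioredoxin inhibitor whose transcript is known to be raised by glucose, averaged 34.5 TPM with empagliflozin and 39.2 TPM without it. It varied widely within each group, between 29.17 and 38.49 TPM in the OM plus EMPA libraries and between 32.79 and 46.78 TPM in the OM libraries.

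**Figure D3:**
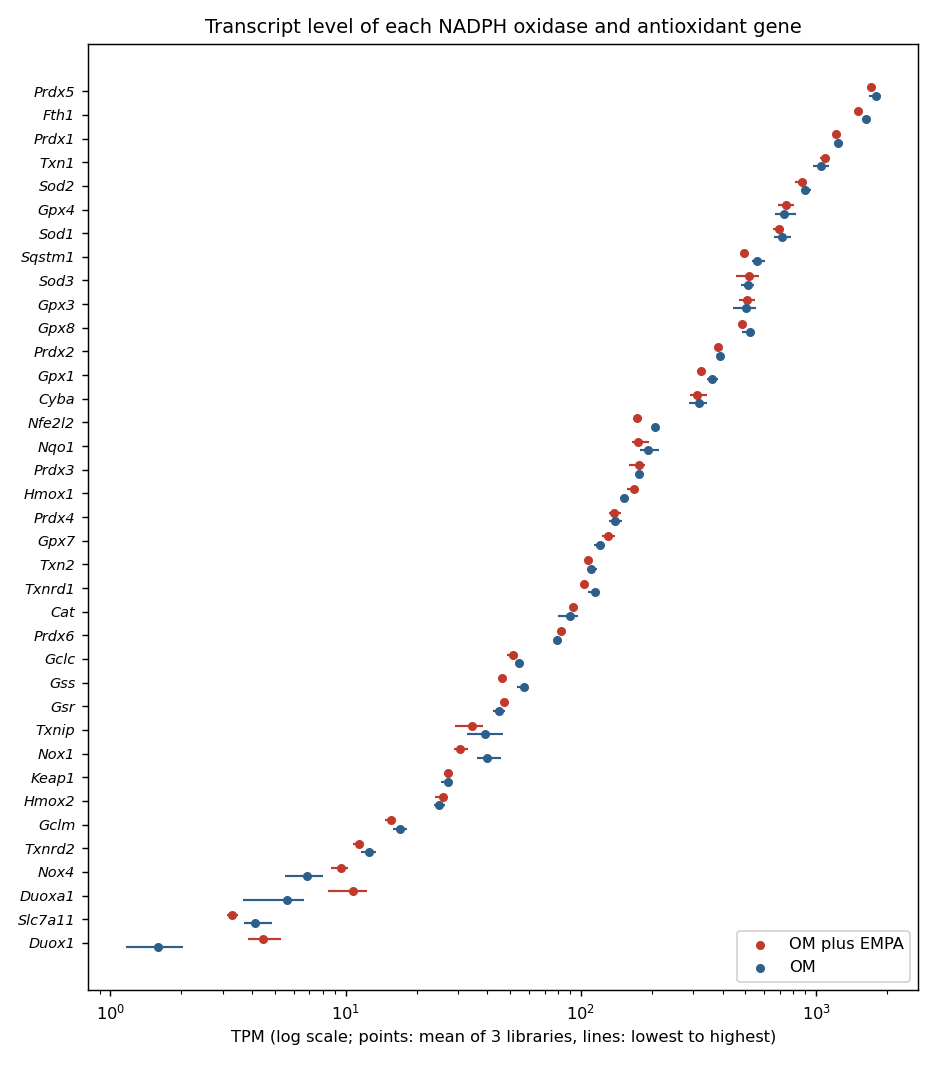
Level of each of the 37 listed genes in TPM (horizontal axis, log scale), with points for the mean of 3 libraries and lines from the lowest to the highest library, OM plus EMPA above OM. Levels run from Prdx5 at 1752 TPM over the 6 libraries down to Duox1 at 3.03 TPM, and the lines of the groups do not overlap for 10 genes, among them Duox1, Duoxa1, Nox4, Nfe2l2 and Gss.

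Across the 6 libraries 4 genes averaged at least 1000 TPM (Prdx5, Fth1, Prdx1 and Txn1), 18 averaged at least 100 and under 1000 TPM, and 11 averaged at least 10 and under 100 TPM. The remaining 4 were Nox4, Duoxa1, Slc7a11 and Duox1, each under 10 TPM. All 37 genes together summed to 12783, 12266 and 12483 TPM in the OM plus EMPA libraries, against 13342, 12449 and 12993 TPM in the OM libraries. These sums overlapped. The 5 oxidase genes summed to 366 ± 34.6 TPM in the OM plus EMPA group against 372 ± 29.6 TPM in the OM group (SD, n = 3 each), most of it Cyba. The listed spans of 8 of the 37 genes overlap that of another gene, among them Txnip, which lies within Lix1l, and Hmox2 (111 bases with Cdip1). Ferritin, peroxiredoxin, thioredoxin and glutathione peroxidase genes also have processed copies in rodent genomes, and how reads were divided between copies is not stated, so those levels are uncertain.

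Glutathione is built in a pair of steps, by glutamate-cysteine ligase (catalytic subunit Gclc, modifier Gclm) and then by glutathione synthase (Gss), from cystine that the transporter SLC7A11 imports. Gss was at 46.13, 45.57 and 46.56 TPM in the OM plus EMPA libraries and at 59.44, 53.57 and 58.11 TPM in the OM libraries. The groups did not overlap, and the libraries with empagliflozin lay within 1 TPM of each other. The means were 46.1 ± 0.50 TPM in the OM plus EMPA group against 57.0 ± 3.08 TPM in the OM group (SD, n = 3 each), and the fold change of Gss was -0.30 (SE 0.05, adjusted p = 0.0164 from limma). Gss was no longer called when replicate 1 or 2 of the OM plus EMPA group, or replicate 1 or 3 of the OM group, was left out (adjusted p = 0.0514 to 0.0643 from limma, with fold changes of -0.30, -0.29, -0.27 and -0.29).

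The listed span of Gss (chromosome 3, 144047850 to 144078198, minus strand) shares 11826 bases with that of Acss2, a cytosolic acetyl-CoA synthetase on the opposite strand, which was added after its values were seen. Acss2 was at 51.81, 49.65 and 50.09 TPM in the OM plus EMPA libraries and at 35.79, 34.93 and 33.14 TPM in the OM libraries, with a fold change of 0.53 (SE 0.05, adjusted p = 0.00246 from limma). Acss2 was called higher and Gss lower. The sources used here do not say whether the counting used strand, so reads from the shared bases cannot be told apart and the value of Gss is uncertain to that extent.

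Of the other glutathione genes, Slc7a11 was at 3.12, 3.48 and 3.28 TPM in the OM plus EMPA libraries and at 3.74, 4.88 and 3.70 TPM in the OM libraries. The groups did not overlap, but the fold change of -0.24 did not pass the test (adjusted p = 0.263 from limma), and it was -0.14 without OM replicate 2. Gclc averaged 51.2 TPM with empagliflozin and 54.6 TPM without it, and Gclm averaged 15.5 TPM with empagliflozin and 17.0 TPM without it. Glutathione reductase (Gsr), which restores glutathione from its oxidised form, averaged 47.0 TPM with empagliflozin and 44.7 TPM without it, and was the only gene of the 5 with a fold change above 0. The 5 genes summed to 163 ± 2.2 TPM in the OM plus EMPA group against 177 ± 6.7 TPM in the OM group (SD, n = 3 each).

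Among 29 further genes of glutathione use and recycling 26 were tested, 1 fell and none rose, while 4 were lower and 3 higher at an unadjusted p under 0.05. Of all tested genes 4.86% fell and 24.1% had an unadjusted p under 0.05. The gene that fell was Glrx, glutaredoxin, which removes glutathione from oxidised protein cysteines. Glrx was at 88.53, 78.35 and 89.52 TPM in the OM plus EMPA libraries and at 132.90, 119.18 and 118.22 TPM in the OM libraries. The groups lay well apart, with a fold change of -0.53 (SE 0.07, adjusted p = 0.00635 from limma). Glrx stayed called when any 1 library was left out (adjusted p = 0.0154 to 0.0229). Glrx3, a related protein that handles iron-sulfur clusters, averaged 176 TPM with empagliflozin and 207 TPM without it (fold change -0.23, adjusted p = 0.0660 from limma).

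Nfe2l2, the gene of NRF2, was at 169.83, 168.01 and 181.84 TPM in the OM plus EMPA libraries and at 209.84, 207.36 and 202.48 TPM in the OM libraries. No overlap was seen, and OM plus EMPA replicate 3 was nearest to the OM libraries. The means were 173 ± 7.5 TPM in the OM plus EMPA group against 207 ± 3.7 TPM in the OM group (SD, n = 3 each), and the fold change of Nfe2l2 was -0.25 (SE 0.04, adjusted p = 0.0173 from limma). Omitting replicate 1 or 2 of the OM plus EMPA group or replicate 1 or 3 of the OM group ended the call (adjusted p = 0.0519 to 0.0632), as did leaving the variance trend out of the model (adjusted p = 0.0593 from limma). In the authors' table it lies on chromosome 3 from 60591666 to 60622252, minus strand. Its inhibitor Keap1, the adaptor that marks NRF2 for breakdown, averaged 27.2 TPM in each group.

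**Figure D4:**
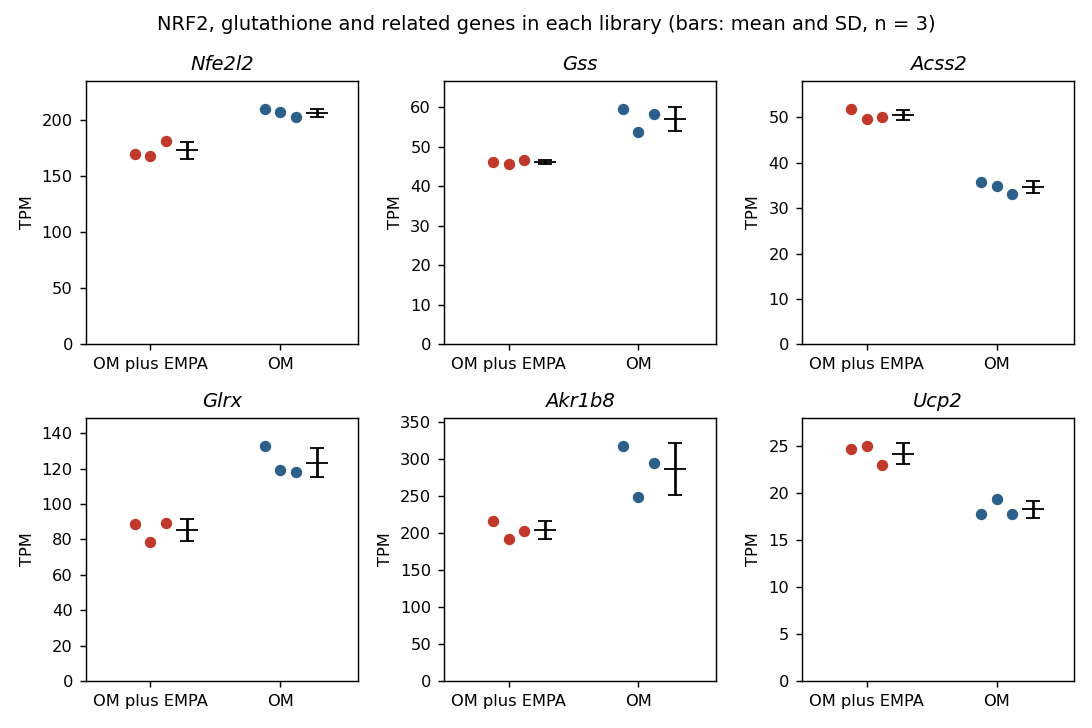
TPM of Nfe2l2, Gss and its overlapping neighbour Acss2, Glrx, Akr1b8 and Ucp2 in each library (vertical axis, linear, starting at 0), with a bar for the mean and SD of each group (n = 3). The 3 OM plus EMPA points lie below the 3 OM points for Nfe2l2, Gss, Glrx and Akr1b8 and above them for Acss2 and Ucp2.

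Sqstm1 encodes p62, an autophagy receptor that binds KEAP1 and is itself a target of NRF2. It was at 502.54, 479.99 and 491.25 TPM in the OM plus EMPA libraries and at 606.56, 540.78 and 534.44 TPM in the OM libraries. The groups did not overlap, but the fold change of -0.19 (SE 0.06) did not pass the test (adjusted p = 0.0933 from limma). Fth1, the heavy chain of the iron store ferritin, averaged 1501 TPM with empagliflozin and 1632 TPM without it, with groups that did not overlap. Its fold change was -0.12 (adjusted p = 0.174 from limma), and its listed span of 98322 bases covers parts of Fads2, Fads3 and Rab3il1. Nqo1, a quinone reductase used as a readout of NRF2, averaged 175 TPM with empagliflozin and 192 TPM without it (fold change -0.13, adjusted p = 0.410 from limma), and its fold change was -0.21 when replicate 1 with empagliflozin was left out and -0.05 when OM replicate 1 was.

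Hmox1, the inducible haem oxygenase, was at 170.85, 156.84 and 174.74 TPM in the OM plus EMPA libraries and at 157.58, 149.84 and 148.09 TPM in the OM libraries. The groups overlapped by 1 library, and the fold change of 0.14 did not pass the test (adjusted p = 0.159 from limma). After median-ratio scaling the fold change of Hmox1 was 0.20, still short of the threshold (adjusted p = 0.0506 from limma). Hmox2, the constitutive form, averaged 25.9 TPM with empagliflozin and 24.9 TPM without it. The 7 genes grouped with NRF2, among them its inhibitor Keap1 and the constitutive Hmox2, summed to 2587, 2539 and 2558 TPM in the OM plus EMPA libraries. The sums were 2804, 2807 and 2774 TPM in the OM libraries. Fth1 and Sqstm1, neither of them called, made up most of each sum. These sums did not overlap.

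NRF2 binds the antioxidant response element, whose core is TGACNNNGC. The 300 bases around the annotated starts (250 before and 50 after, RefSeq, build GRCr8) were found for 30 of the 37 genes, in 34 sequences because some genes have several records, and both strands were searched. The core was present in 8 of the 34 (23.5%), each from a different gene, and in 4038 of 33469 such sequences of all genes (12.1%). The matches are shown 5′ to 3′ on the strand of the gene with up to 10 flanking bases, the core in capitals, and appear as GCNNNGTCA where the core is on the opposite strand, as it is in all but Nfe2l2. Gclm, Prdx1 and Prdx4 are on the plus strand of their chromosome and the others on the minus strand.
Gclm (chr2:213031953-213031981): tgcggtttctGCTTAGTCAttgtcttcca
Prdx1 (chr5:135383761-135383789): cagggaaagcGCTGAGTCAtaccccgccg
Txnrd1 (chr7:22755964-22755992): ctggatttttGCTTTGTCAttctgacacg
Prdx5 (chr1:213532010-213532038): cctcctgtggGCAGAGTCAtctgcgggtg
Sod2 (chr1:50050185-50050213): ggcgctgccgGCAGGGTCAgcgcctagct
Hmox2 (chr10:11337689-11337717): gtcttggaagGCAGTGTCAgcttggccag
Prdx4 (chrX:43878742-43878770): tttcgtgctcGCTTGGTCAtggaaacgtg
Nfe2l2 (chr3:81028950-81028971): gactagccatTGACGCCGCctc
Of these 8 genes, Nfe2l2 was called lower and the others were not called, with fold changes between -0.14 (Txnrd1) and 0.05 (Hmox2). No match was found in these bases of Duox1, Duoxa1 or Gss, and a match describes letters only.

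Of 22 other genes of the NRF2 pathway all were tested, 4 fell and none rose, and 17 of the 22 had fold changes below 0. Among all tested genes 4.86% fell and 65.1% had fold changes below 0. At an unadjusted p under 0.05, 10 of the 22 were lower and 1 higher, against 17.6% and 6.42% of all tested genes. This list, like the other lists here, was written with earlier results of these data known, so its counts are description only. Akr1b8, an aldo-keto reductase that detoxifies lipid aldehydes, was at 216.38, 191.75 and 202.87 TPM in the OM plus EMPA libraries and at 317.66, 247.96 and 294.19 TPM in the OM libraries. OM libraries were all above OM plus EMPA libraries, and the fold change was -0.49 (SE 0.09, adjusted p = 0.0223 from limma). Its paralog Akr1b10 averaged 7.46 TPM with empagliflozin and 12.02 TPM without it (fold change -0.63, adjusted p = 0.0161 from limma). The listed span of Akr1b10 on chromosome 4, 62993697 to 63054294, contains that of Akr1b8, 62997161 to 63010097, so reads may have been split between the copies and both values are uncertain.

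The other genes of the pathway that fell had smaller changes. Esd, which completes the glutathione-dependent removal of formaldehyde, averaged 158 TPM in the OM plus EMPA group against 184 TPM in the OM group (fold change -0.21, adjusted p = 0.0298 from limma). Ugdh, which makes UDP-glucuronate for conjugation, averaged 273 TPM in the OM plus EMPA group against 311 TPM in the OM group (fold change -0.19, adjusted p = 0.0356 from limma). Leaving out 1 library ended the call of Ugdh for each of the 6 libraries (adjusted p = 0.0662 to 0.105), of Esd for all but OM replicate 2 (0.0699 to 0.102), and of Akr1b8 for all but OM plus EMPA replicate 1 and OM replicate 2 (0.0585 to 0.0801). For Akr1b10 the call ended on omitting replicate 2 or 3 of the OM plus EMPA group or replicate 3 of the OM group (adjusted p = 0.0516 to 0.0588 from limma). Median-ratio scaling ended the calls of Esd and Ugdh (adjusted p = 0.0924 and 0.117 from limma), TPM without mitochondrially encoded genes ended that of Ugdh (adjusted p = 0.0627), and leaving out the variance trend ended those of Akr1b8, Esd and Ugdh (adjusted p = 0.0568 to 0.0996). Of 4 adventitial fibroblast markers tested 2 fell (Dcn and Pdgfra), against 4.86% of all tested genes. Lum and Pi16 were not called, with fold changes of -0.09 and 0.26. The 5 listed summed to 5023 ± 386.1 TPM with empagliflozin and 6389 ± 475.5 TPM without it (SD, n = 3 each). Dcn made up most of that sum. Of 3 macrophage and leukocyte markers tested Cd68 fell by 0.83. Cd14 and Fcer1g were not called, with fold changes of -0.15 and -0.0037. Those 3 markers summed to 149 ± 3.3 TPM with empagliflozin and 158 ± 4.5 TPM without it (SD, n = 3 each), most of it Fcer1g. Whether these marker shifts or the mitochondrial share have a part in any of the differences above was not tested.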

How the data were processed

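RNA of 6 samples of rat VSMCs (3 OM plus EMPA, 3 OM) was analysed. The authors deposited TPM for 13526 genes, 1 value per gene and sample. Among the tools in the submitters' processing notes are RSEM, DESeq2, fastp and HISAT2 2.0.5, with no roles stated, and no source used here gives the genome build. The table also holds log2 fold changes and p-values of the authors' own comparison, which were not used, and a second deposited table is a subset of it and was not used. The 39 genes, the other lists and the tests were chosen with earlier results of these data known. TPM keep no sequencing depth, so no precision by depth can be given. limma 3.58.1 (R 4.3.3) with a variance trend was fitted to log2(TPM + 1) for the 12564 genes averaging 1 TPM or more, with group as the only term and 4 residual degrees of freedom. P-values were adjusted over all these genes by the Benjamini-Hochberg method. The steps were tested on simulated data. Every listed gene is given by its group means or by its library values. The called genes, the oxidases and some others are given by library, and the 2 genes with the smallest p in each role group by fold change. Of the other lists the called genes are named, up to 4 each by p. Other genes named from those lists and the neighbours of listed genes, such as Duox2 and Acss2, were added after their values were seen. Alternatives were a pseudocount of 0.1, no filter, a replicate block, median-ratio scaling, TPM without the 16 mitochondrially encoded genes, no variance trend, an adjusted p of 0.1 and each library left out in turn. Promoter sequences are from RefSeq (GRCr8). Tables and figures were made in Python 3.11.15 (numpy 2.4.6, pandas 2.3.3, matplotlib 3.10.9, scipy 1.17.1).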

Additional observations from a re-analysis of the deposited data

How the results depend on the processing

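Over all tested genes, 259 were higher and 611 lower. The counts were 460 and 1090 at an adjusted p of 0.1, 390 and 381 with median-ratio scaling, 154 and 366 with no variance trend, 449 and 951 with the replicate block, and 80 to 216 and 245 to 438 with 1 library left out. Of the oxidase and antioxidant genes 3 were higher and 4 lower at an adjusted p of 0.1, and 1 was lower with no variance trend. With 1 library left out, 1 was higher each time, and 0 to 2 were lower, 0 when the omitted library was replicate 1 or 2 with empagliflozin or replicate 1 or 3 without it. Their median fold change turned to 0.027 with median-ratio scaling, and ran between -0.0553 and 0.0018 with 1 library left out, positive without OM replicate 1.

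The replicate block gave 2 higher and 4 lower of the oxidase and antioxidant genes, adding Duoxa1 (adjusted p = 0.0043 from limma), Nox1 (0.00931) and Sqstm1 (0.0371), and Me1, Idh1, Ftl1, Slc11a2 and Ncoa4 from the other lists also passed. Deviations of same-numbered samples correlated at 0.0979, 0.162 and 0.0575, and every sample correlated best with its own number. The labels do not say that a number marks a shared culture, so the block was not used above.

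Of the 37 genes 24 kept their sign under the 9 alternatives that change fold changes at all (the replicate block, no filter, no variance trend and another threshold do not). The other 13 had fold changes of at most 0.047 in size and none was called. Median-ratio scaling moved the fold changes of all 37 genes upward, less for low genes such as Duox1 (1.0829 to 1.1244) than for abundant ones such as Cyba (-0.0311 to 0.027). The median over all tested genes was -0.0005 with it against -0.05 without it. Fold changes just below 0 turned to 0.027 for Cyba, 0.0208 for Sod1, 0.0186 for Sod2, 0.0284 for Prdx1, 0.0289 for Prdx2, 0.0554 for Prdx3, 0.0495 for Prdx4, 0.018 for Txn2 and 0.0545 for Keap1. Without mitochondrially encoded genes they turned to 0.0254 for Prdx3, 0.0196 for Prdx4 and 0.0255 for Keap1. With 1 library left out they ran between -0.1077 and 0.0257 for Cyba, -0.0892 and 0.035 for Sod1, -0.0714 and 0.0122 for Sod2, -0.0484 and 0.1122 for Sod3, -0.0346 and 0.1029 for Cat, -0.0723 and 0.091 for Gpx3, -0.0308 and 0.1205 for Gpx4, -0.0553 and 0.0077 for Prdx1, -0.0503 and 0.0018 for Prdx2, -0.052 and 0.0615 for Prdx3, -0.0536 and 0.045 for Prdx4, -0.065 and 0.0042 for Txn2, and -0.0465 and 0.0263 for Keap1. The cause was not tested. A pseudocount of 0.1 and no filter moved no call among the 37 genes and the genes of other lists recomputed here. The calls of Acss2 and of the marker genes were not recomputed. TPM hold no depth, so counting error of low genes such as Duox1 could not be given.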

Other observations

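NADPH feeds both the oxidases and the reductases described above, so the 12 tested genes of its supply were compared too, and none was called higher or lower. At an unadjusted p under 0.05, 5 were higher and 1 lower (6.42% and 17.6% of all tested genes were), with a lowest adjusted p of 0.101 (limma). Idh1, the cytosolic NADP-dependent isocitrate dehydrogenase, was at 188.80, 181.28 and 176.11 TPM in the OM plus EMPA libraries and at 167.90, 167.08 and 154.24 TPM in the OM libraries. The groups did not overlap, and the fold change was 0.16. Its mitochondrial counterpart Idh2 had a fold change of 0.17, and malic enzyme Me1 one of 0.26 (adjusted p = 0.127 and 0.135 from limma), the last 0.17 without OM plus EMPA replicate 1. Idh1 passed the threshold after median-ratio scaling (adjusted p = 0.0357 from limma). Aldh1l2, a mitochondrial folate enzyme that makes NADPH, averaged 70.1 TPM with empagliflozin and 60.3 TPM without it (fold change 0.21, adjusted p = 0.159 from limma).

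Iron handling meets oxidant defence through ferritin, and none of its 10 tested entries passed the test, against 6.92% of all tested genes. At an unadjusted p under 0.05, 1 was higher and 2 lower, against 6.42% and 17.6% of all tested genes. Ftl1, the ferritin light chain (chromosome 1, 95936387 to 95939725), was at 6606.41, 6388.93 and 6641.29 TPM in the OM plus EMPA libraries and at 5588.76, 5765.63 and 5719.70 TPM in the OM libraries. These groups did not overlap, whereas Fth1, the heavy chain, had the opposite sign. The fold change of this Ftl1 entry was 0.20 (adjusted p = 0.0768 from limma, or 0.0434 after median-ratio scaling). Ferritin copies elsewhere in the genome, one of them listed at chromosome 5 under the same symbol, make its value uncertain. That chromosome 5 entry averaged 45.75 TPM with empagliflozin and 55.63 TPM without it, and its groups overlapped. Its fold change was -0.28 (adjusted p = 0.607 from limma), the same sign as Fth1. The iron importer Slc11a2 had a fold change of -0.35 and the ferritin autophagy receptor Ncoa4 one of -0.16 (adjusted p = 0.0511 and 0.0540 from limma). Slc11a2 passed the threshold without OM replicate 2 (adjusted p = 0.0374 from limma).

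Of 28 tested entries for other peroxide and methionine sulfoxide enzymes and related genes, 1 rose and none fell, while 5 were higher and 3 lower at an unadjusted p under 0.05. Of all tested genes 6.92% were called and 24.1% had an unadjusted p under 0.05. Ucp2, a mitochondrial inner membrane carrier linked to lower mitochondrial superoxide, was at 24.68, 25.06 and 22.98 TPM in the OM plus EMPA libraries and at 17.77, 19.37 and 17.83 TPM in the OM libraries. The groups did not overlap, and the fold change was 0.39 (SE 0.06, adjusted p = 0.0137 from limma). Omitting replicate 1 or 2 of the OM plus EMPA group or replicate 3 of the OM group ended the call (adjusted p = 0.0501 to 0.0577 from limma). Xdh, xanthine dehydrogenase, a source of superoxide and urate, is counted with the 16 other oxidase and related genes, not with these 28 entries. It averaged 44.5 TPM with empagliflozin and 53.0 TPM without it (fold change -0.25, adjusted p = 0.0788 from limma).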
